A study of Homo sapiens with 12 samples.

Results

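Here A549 cells after 96 h of TGF-β treatment were compared with the same cells at 0 h, before the cytokine was added. The samples were chosen by time point alone. Of the 12 sequencing runs of the study 8 belong to these time points, and because both runs of a library are summed in the count table, they give 4 of the 6 libraries, 2 at 0 h and 2 at 96 h. A549 is an established human lung adenocarcinoma cell line of epithelial morphology. TGF-β is a cytokine under which these cells go through epithelial-mesenchymal transition (EMT), in which cell contacts are lost and a motile, mesenchymal state is gained. The labels name no genetic change and no agent other than the induction of EMT in this 1 cell line. No culture kept for 96 h without TGF-β was among the libraries, so the cytokine and the time in culture cannot be told apart. The labels do not say whether the 2 libraries of a time point came from separate cultures, so p-values measure the spread between these libraries, which may be technical. Both 96 h libraries and 0 h replicate 1 had their second run on the same date and 0 h replicate 2 on another; the part of this date in the results was not tested. Values of libraries are given in the order of replicate 1 and replicate 2. Where values at 24 h are given, they come from the remaining 2 libraries, which also shared the estimate of the spread.

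MicroRNAs (miRNAs) are short RNAs that are cut from hairpin precursors by the nucleases Drosha and Dicer and guide Argonaute proteins to messenger RNAs. Targets are recognized mainly through the seed, bases 2 to 8 of the mature strand, and miRNAs with a common seed form a seed family. A hairpin yields a 5p and a 3p strand, of which one is usually the more abundant, and neighbouring hairpins are often transcribed together from one locus. In epithelial cells the miR-200 family is known for holding down the transcription factors ZEB1 and ZEB2, which drive EMT. The sequences below, from RefSeq on GRCh38.p14, are those on which the results turn, written 5′ to 3′ with the seed in capitals. The first 6 lines are falls at 96 h and the partner strand miR-27b-3p, the next 9 lines are families whose members share a seed and differed in their values, and the last 9 lines are miRNAs with higher values at 96 h, shown for their shared seeds or strands.
miR-7-5p: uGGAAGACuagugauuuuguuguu
miR-138-5p: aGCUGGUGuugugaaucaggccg
miR-1180-3p: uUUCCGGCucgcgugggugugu
miR-4521: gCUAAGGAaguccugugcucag
miR-27b-5p: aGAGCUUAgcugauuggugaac
miR-27b-3p: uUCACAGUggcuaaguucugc
miR-33b-5p: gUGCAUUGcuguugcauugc
miR-33a-5p: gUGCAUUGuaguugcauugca
miR-17-5p: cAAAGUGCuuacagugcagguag
miR-20a-5p: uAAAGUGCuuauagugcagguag
miR-93-5p: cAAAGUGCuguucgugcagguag
miR-106b-5p: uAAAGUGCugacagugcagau
miR-29a-3p: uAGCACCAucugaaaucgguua
miR-29b-3p: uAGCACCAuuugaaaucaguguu
miR-29c-3p: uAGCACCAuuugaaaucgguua
miR-181a-5p: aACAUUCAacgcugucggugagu
miR-181b-5p: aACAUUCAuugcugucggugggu
miR-181a-2-3p: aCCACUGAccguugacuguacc
miR-365a-3p: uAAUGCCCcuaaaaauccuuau
miR-455-5p: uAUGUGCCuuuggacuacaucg
miR-455-3p: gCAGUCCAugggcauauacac
miR-582-3p: uAACUGGUugaacaacugaacc
miR-485-3p: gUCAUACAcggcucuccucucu
miR-539-3p: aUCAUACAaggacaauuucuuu

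Of the 2588 mature miRNAs in the table, 491 had enough counts to be tested, and 127 of these (25.9%) were differentially expressed at 96 h. A call needed a log2-fold change above 1 in size and, in the quasi-likelihood test of edgeR, a Benjamini-Hochberg adjusted p below 0.05. In all, 65 miRNAs fell (13.2%) and 62 rose (12.6%), and 216 (44.0%) had an adjusted p under 0.05 at any size of change. Levels are CPM, counts scaled to a library of common size, after TMM normalization, and the split between falls and rises depended on this scaling. The most abundant miRNA, miR-21-5p, took 56.1% and 52.4% of all counts at 0 h and 65.5% and 63.8% at 96 h. Scaled to total counts, 39.1% of the tested miRNAs were called lower and 4.68% higher, and the median log2-fold change of the 491 moved from −0.10 to −0.83. All 65 falls and 23 of the 62 rises kept their call under that scaling. Scaled to total counts without miR-21-5p, 121 were lower and 39 higher, and again all 65 falls kept their call. Both scalings moved the median downward, the second to −0.45, so falls could hardly lose a call and their retention is no test. With DESeq2's size factors within edgeR, 53 of the 65 falls and all 62 rises were retained. These factors moved the median upward, to −0.026, so here rises could hardly lose a call and their retention is no test. The totals on mature miRNAs were 2335185 and 2456447 counts at 0 h and 5971197 and 4658823 at 96 h. The limit set by a count of 0, taken as 3 counts, lay between 0.502 and 1.28 CPM in the 6 libraries. It is scaled to total counts, without TMM, unlike the levels given here, and covers counting error only. The libraries at 0 and 96 h did not overlap in 352 of the 491 miRNAs (71.7%), and an exact permutation test (two-sided) of 2 against 2 libraries cannot give a p below 0.333.

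**Figure D1:**
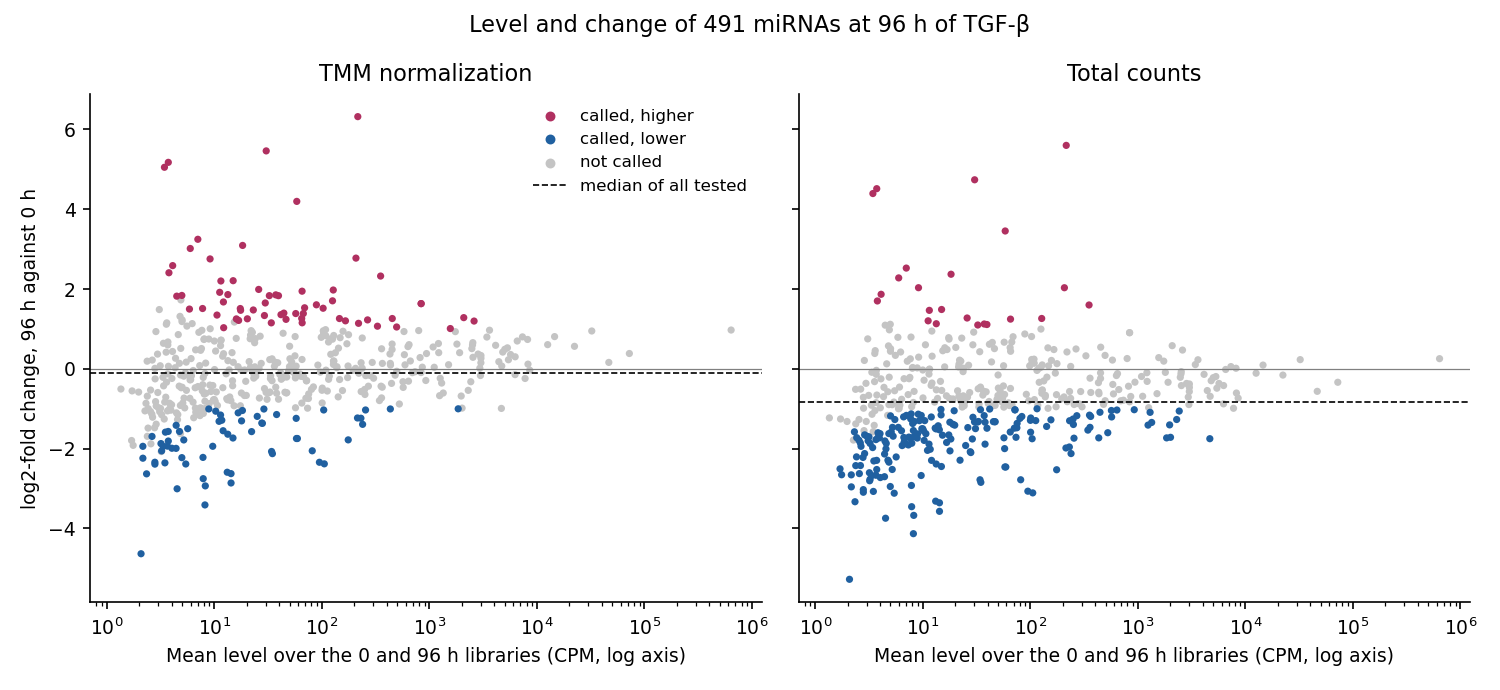
Log2-fold change at 96 h against 0 h (vertical axis) and mean TMM-normalized level over the 4 libraries (horizontal axis, CPM, log scale) of 491 miRNAs, with changes scaled by TMM on the left and by total counts on the right. Red points were called higher, blue points lower and grey points not called; the dashed line is the median of all tested miRNAs, at −0.10 on the left and −0.83 on the right.

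The falls were mostly low in abundance and came from many loci. Their median level over the 4 libraries was 11.4 CPM, against 35.5 CPM in the rises and 26.0 CPM in all tested miRNAs. A mean of at least 10 CPM was reached by 35 of the 65 falls, at least 100 CPM by 9, and at least 1000 CPM by 1, miR-7-5p. Both 96 h libraries had fewer than 10 counts in 22 of the 65. These 22 passed the filter on counts only through libraries of the other time points. The filter thereby favoured a fall in them, and their calls are no independent support. The 65 falls together held 0.752% and 0.854% of the reads at 0 h and 0.207% and 0.203% at 96 h. The 62 rises held 0.858% and 0.867% at 0 h and 1.35% and 1.37% at 96 h, so that both groups were a small part of each library. The 51 falls with a single positioned precursor lay on 19 chromosomes, while 34 of the 56 such rises lay on chromosome 14, as did 60 of all 393 such tested miRNAs. The median GC content of the mature sequence was 54.5% in the 56 falls with a sequence, 45.5% in the 56 rises with one, and 47.6% in all 434 tested miRNAs with one. Of the 38 falls whose precursor has both strands in the table, 16 (42.1%) were the less abundant strand, against 12 of 49 rises (24.5%) and 108 of 360 among all such tested miRNAs. These shares are given as descriptions and were not tested.

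miR-7-5p was the most abundant fall. It is expressed from several precursors, one of them, MIR7-1, within HNRNPK, the gene of an RNA-binding protein (chromosome 9, 86584663 to 86584772, GRCh37). Its level was 2541 and 2401 CPM at 0 h and 1329.6 and 1134 CPM at 96 h. The 2 time points were well apart, and the log2 change of −1.004 (standard error 0.14, edgeR's adjusted p = 0.000433) only just passed the threshold of 1. Leaving out 0 h replicate 1 (−0.92) or 96 h replicate 2 (−0.85) ended the call, as did DESeq2. The level of miR-138-5p, encoded by MIR138-1 on chromosome 3 (44155704 to 44155802) and MIR138-2 on chromosome 16 (56892430 to 56892513), was 210.3 and 334 CPM at 0 h and 73.7 and 84.6 CPM at 96 h. Its 0 h libraries differed between themselves, yet both 96 h libraries were below the lower of them, and the log2 change was −1.78 (standard error 0.23, adjusted p = 0.000299). miR-4521 was at 182.8 and 171 CPM at 0 h and 36.1 and 31.5 CPM at 96 h. With replicates close together, its log2 change was −2.38 (standard error 0.19, adjusted p = 1.19e-05), and it stayed between −2.46 and −2.25 when each of the 4 libraries was left out. miR-1180-3p, whose precursor MIR1180 lies within B9D1 on chromosome 17 (19247819 to 19247887), was at 342 and 351 CPM at 0 h and 139.5 and 123.95 CPM at 96 h. Here too the replicates were close and the time points apart, with a log2 change of −1.39 (standard error 0.15, adjusted p = 0.000121).

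In 35 falls the time points did not overlap and the mean reached 10 CPM, and the 12 with the largest change, by number, were miR-33b-3p, miR-138-5p, miR-486-5p, miR-486-3p, miR-1268a, miR-1268b, miR-1303, miR-3912-3p, miR-4483, miR-4521, miR-4664-3p, and miR-7974. Their log2-fold changes lay between −2.86 and −1.74. miR-7974 was at 164 and 153 CPM at 0 h and 30.9 and 31.5 CPM at 96 h, a change of −2.34 (standard error 0.17, adjusted p = 7.58e-06). Both strands of the miR-486 precursor fell. miR-486-5p, an miRNA of the erythroid lineage that is encoded within ANK1, was at 129 and 132.8 CPM at 0 h and 28.4 and 34.7 CPM at 96 h, and the log2-fold changes were −2.06 for the 5p and −2.63 for the 3p strand. miR-1303, which lies within LARP1 (MIR1303, chromosome 5, 154065336 to 154065421), was at 69.6 and 43.6 CPM at 0 h and 17.2 and 8.14 CPM at 96 h, with a wider spread at both times and a change of −2.13 (standard error 0.35) that was −2.75 without 96 h replicate 1 and −1.66 with 96 h replicate 2 left out. miR-4483, the largest of the 12, had 74 and 77 counts in the 0 h libraries and 6 and 21 in those at 96 h, a change of −2.86 (standard error 0.47) that was −2.10 and −4.12 without 96 h replicates 1 and 2. miR-3912-3p went from 63.4 and 46.5 to 10.4 and 15.7 CPM, a change of −2.07 (standard error 0.26). miR-1268a and miR-1268b have nearly the same counts in every library, so that they cannot be told apart and stand for 1 fall of −1.75. miR-4664-3p lost its call without 96 h replicate 2, where its change was −1.32.

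**Figure D2:**
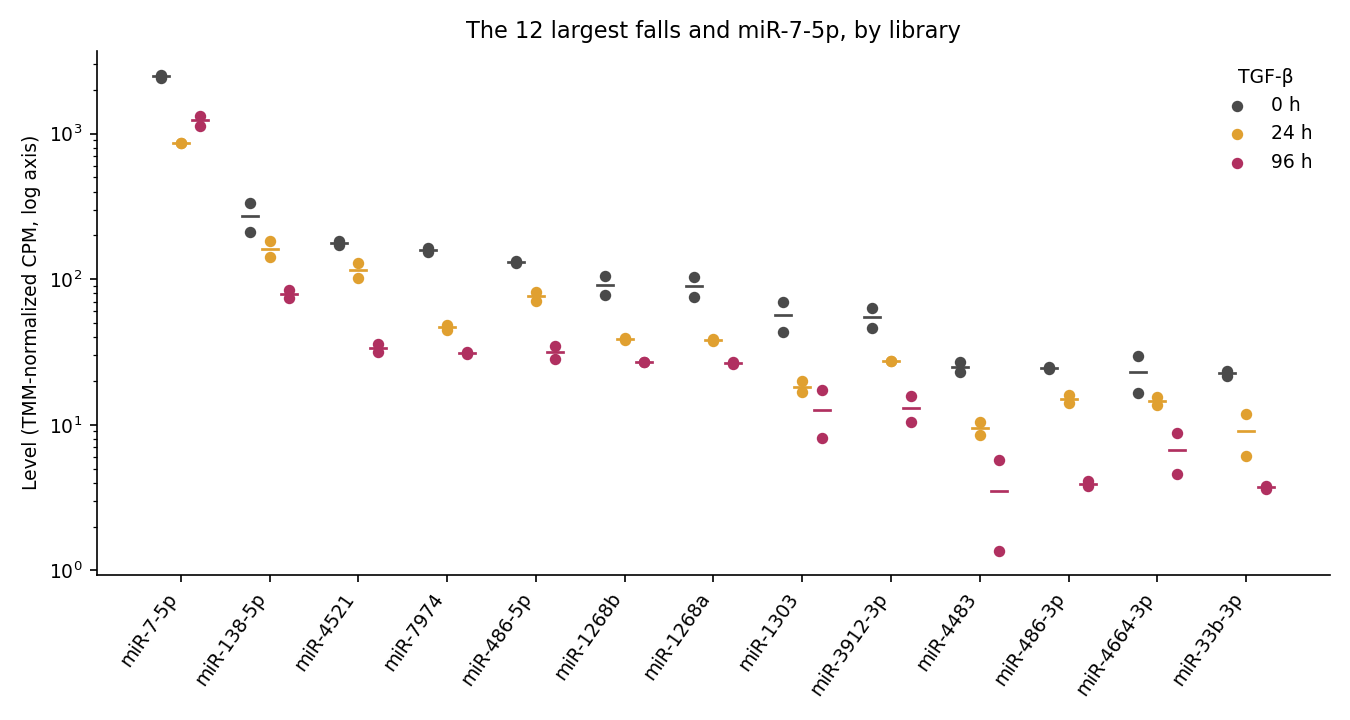
Level of the 12 largest falls and of miR-7-5p in each library (vertical axis, TMM-normalized CPM, log scale), with grey points for 0 h, orange points for 24 h, red points for 96 h and short lines for the mean of the 2 libraries. In all 13 miRNAs the 96 h points lie below the 0 h points, from 1329.6 and 1134 against 2541 and 2401 CPM for miR-7-5p to 3.63 and 3.80 against 23.4 and 21.8 CPM for miR-33b-3p.

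The miR-33 miRNAs lie in introns of the genes for the sterol regulators SREBF1 and SREBF2 and are known to repress cholesterol export. MIR33B lies within SREBF1 on chromosome 17 (17717150 to 17717245) and MIR33A within SREBF2 on chromosome 22 (42296948 to 42297016), and their 5p strands share the seed UGCAUUG and differ at 2 of 20 positions compared. miR-33b-5p had 27 and 64 counts in the 0 h libraries and 3 and 12 in those at 96 h, and miR-33a-5p had 11 and 22 counts in the 0 h libraries and 5 and 6 in those at 96 h. All were low, and reads of such close sequences could have been split between both; the change of miR-33b-5p alone was −2.94 and lay between −4.32 and −2.13 without single libraries, and that of miR-33a-5p was −1.95, called only without 0 h replicate 1 when single libraries were left out. Summed over the seed, the family fell by 2.55 on the log2 scale (standard error 0.45, adjusted p = 0.000943, edgeR over 409 seeds), and it kept its call without each of the 4 libraries. miR-33b-3p, the other strand, was higher than the 5p strand in both 0 h libraries, at 23.4 and 21.8 CPM, and was at 3.63 and 3.80 CPM at 96 h, a change of −2.59 (standard error 0.37, adjusted p = 0.000482). miR-33a-3p was not called, at −1.01 (standard error 0.62). Together with miR-378a, which lies within PPARGC1B, the gene of a metabolic coactivator, 6 members were tested and 3 were called lower. Their median was −1.48, against −0.10 in all tested miRNAs, of which 13.2% were called lower. All 3 calls were strands of miR-33, while miR-378a-5p, at −0.999, and miR-378a-3p, at −0.61, were not called.

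Below 10 CPM on average, falls rested on few counts. Where both 96 h libraries had fewer than 10 counts, the filter was passed only through other time points, which favoured a fall. miR-573, whose precursor MIR573 lies within DHX15 (chromosome 4, 24521815 to 24521913), had 40 and 51 counts in the 0 h libraries and 4 and 7 in those at 96 h. These time points were far apart for so few counts, and the log2 change was −3.41 (standard error 0.45, adjusted p = 0.000299, edgeR). miR-326, within the β-arrestin gene ARRB1 (MIR326, chromosome 11, 75046136 to 75046230), had 18 and 32 counts in the 0 h libraries and 7 and 1 in those at 96 h, a change of −3.01 (standard error 0.69) that was −4.70 without 96 h replicate 1 and lost its call without 96 h replicate 2. miR-302c-5p, of a cluster known from pluripotent cells, had 13 and 11 counts in the 0 h libraries and 0 and 1 in those at 96 h. Per total count, its summed level at 96 h was 0.0188 times that at 0 h, with an exact 95% interval from 0.000457 to 0.115 that covers counting error only. It was the only tested member of its cluster, of 10 listed. Of the 30 falls under 10 CPM, DESeq2's Wald test called 15, and of the 35 others it called 28.

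The calls of some falls depended on single libraries. Leaving out a library also leaves fewer libraries to estimate the spread, so a lost call need not reflect a moved change. Without 0 h replicate 2, 42 of the 65 falls kept their call, without 0 h replicate 1 44, without 96 h replicate 1 31, and without 96 h replicate 2 34; 23 kept it in all 4 cases. Among the 62 rises these numbers were 53, 59, 52, and 55, with 48 in all 4 cases. miR-1307-5p was at 193.8 and 407 CPM at 0 h and 94.4 and 162 CPM at 96 h, and its log2 change of −1.23 (standard error 0.36, adjusted p = 0.0205, edgeR) was −0.59 without 0 h replicate 2. The same library decided miR-378d, miR-193a-3p, and miR-130b-3p, whose changes were −1.24, −1.31, and −1.01 with all libraries and −0.64, −0.63, and −0.49 without it. In contrast, 0 h replicate 1 was the higher in miR-941, at 406 and 279 CPM at 0 h against 162 and 172 CPM at 96 h, and its change of −1.03 was −0.70 without that library. miR-589-5p, within FBXL18 (MIR589, chromosome 7, 5535450 to 5535548), changed by −1.03 and was −0.93 without 0 h replicate 1 and −0.92 with 96 h replicate 1 left out, in both cases without a call.

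One precursor was called for a change in the ratio of its strands. Among 108 precursors with both strands tested, miR-27b was called (0.926%) by limma on log2((5p count + 0.5)/(3p count + 0.5)), a ratio that does not depend on the scaling between libraries, and 24 had an unadjusted p under 0.05. MIR27B lies on chromosome 9 (97847727 to 97847823), within AOPEP, and its abundant strand, miR-27b-3p, is known for repressing regulators of fat cell formation. Over 0, 24, and 96 h, the counts of miR-27b-5p were 940 and 1017, 657 and 762, and 597 and 511, while those of miR-27b-3p were 126490 and 139776, 124580 and 161527, and 229434 and 170583. For each count of the 5p strand there were 135 and 137 counts of the 3p strand at 0 h, while the 24 h libraries gave 189.6 and 211.98 and the 96 h libraries 384 and 334. The 3 time points did not overlap, and the log2 ratio of 5p to 3p was lower at 96 h than at 0 h by 1.40 (standard error 0.22, adjusted p = 0.0151, limma). With the 4 libraries alone the adjusted p was 0.0667, and without 96 h replicate 1 and replicate 2 it was 0.288 and 0.247, where no precursor was called (16 and 10 at an unadjusted p under 0.05). Without 0 h replicate 1 there were 18 calls and without 0 h replicate 2 there were 6, and miR-27b was among both. Taken singly, miR-27b-5p fell from 344 and 303 to 135 and 139 CPM, a change of −1.24 on the log2 scale (standard error 0.15, edgeR's adjusted p = 0.000205), and miR-27b-3p was at 0.16 (standard error 0.15), or −0.57 under total counts. Precursors without a call could have strands as far apart. The 5p strand of miR-148a, with 69 counts over the 4 libraries, was at −0.86 and its 3p strand at 0.80.

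**Figure D3:**
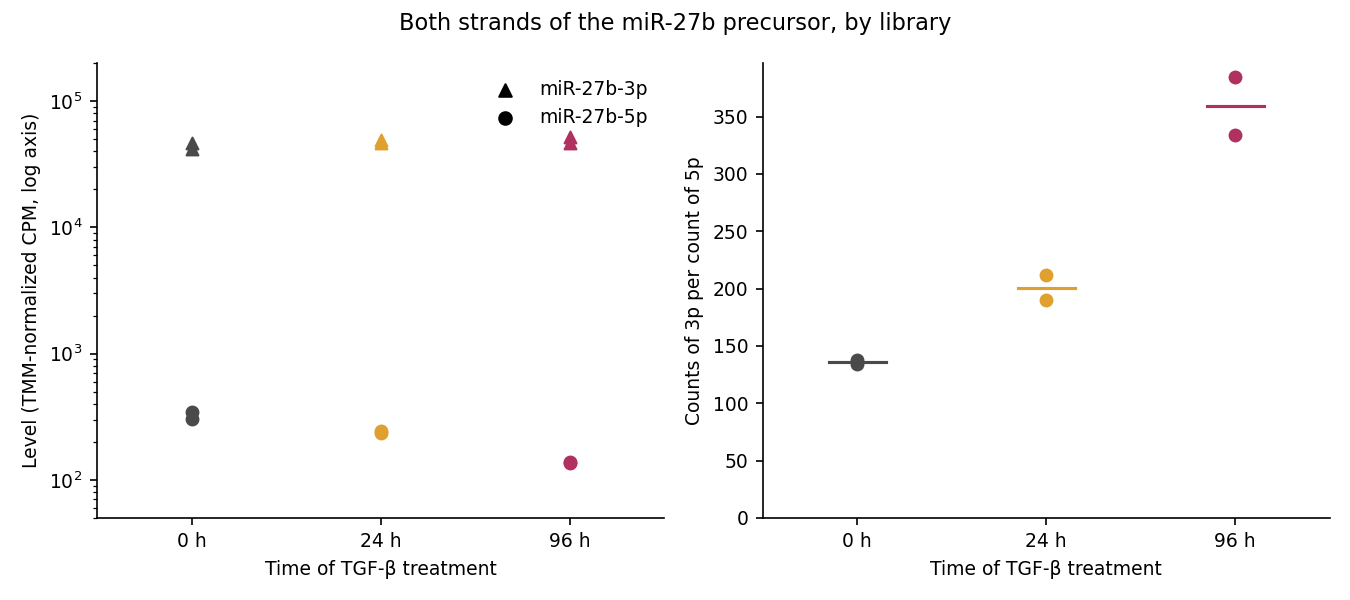
Left, level of miR-27b-3p (triangles) and miR-27b-5p (circles) in each library at 0, 24 and 96 h (vertical axis, TMM-normalized CPM, log scale). Right, counts of the 3p strand per count of the 5p strand in each library, with lines for the mean of the 2 libraries; the ratio was 135 and 137 at 0 h and reached 384 and 334 after 96 h.

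Seed families were compared by summing the counts of all miRNAs with the same bases 2 to 8 in RefSeq; miRNAs without a sequence there stood alone, so that some families are not complete. Of 409 seeds tested, 115 (28.1%) were called, 65 of them higher and 50 lower, and under total counts 22 of these rises and all 50 falls kept their call. As that scaling moved changes downward, falls could hardly lose a call under it. Only 16 seeds had 3 or more tested members, and 1 of the 16 was called, the AAUACUG seed of miR-200b-3p, miR-200c-3p, and miR-429, with a change of 1.20 (standard error 0.18, adjusted p = 0.000311, edgeR). Within that family miR-200b-3p was at 45.1 and 43.0 CPM at 0 h and 147 and 119.9 CPM at 96 h, while miR-429 was at 11.0 and 13.7 against 12.7 and 16.002 CPM and miR-200c-3p was the third member. Of these only miR-200b-3p was called, and the family's value was 0.43 under total counts, without a call. In 8 of the 16 families the members had values on both sides of 0, and 8 had an adjusted p under 0.05.

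The AAAGUGC family, known for promoting the cell cycle, is encoded in several loci and includes miR-17-5p, miR-20a-5p, miR-93-5p, and miR-106b-5p. Its tested members also included the less abundant miR-106a-5p and miR-20b-5p, at −0.82 and −0.98, neither of them called. miR-93-5p was at 1361 and 1697 CPM at 0 h and 919 and 997 CPM at 96 h, miR-106b-5p at 372.9 and 497.4 against 234 and 267 CPM, and miR-17-5p at 426 and 390.3 against 318 and 285 CPM. miR-20a-5p, which differs from miR-17-5p at 2 of 23 positions, was at 696 and 544 CPM at 0 h and 733 and 685 CPM at 96 h. miR-93-5p, miR-106b-5p, and miR-17-5p lay below their 0 h libraries at 96 h and miR-20a-5p did not. The changes of these 4 were −0.67, −0.80, −0.44, and 0.19 (adjusted p = 0.00689, 0.0131, 0.0317, and 0.370, edgeR). Under total counts these 4 were all negative, from −1.54 for miR-106b-5p to −0.52 for miR-20a-5p. The family summed to −0.38 (standard error 0.14, adjusted p = 0.0379), below the threshold for a call. The AGCACCA family, miR-29a-3p, miR-29b-3p, and miR-29c-3p, is known for repressing collagens and other matrix genes. miR-29b-3p was at 4248 and 8186 CPM at 0 h and 2917 and 3325 CPM at 96 h, miR-29c-3p at 51.3 and 99.1 against 34.3 and 42.6 CPM, and miR-29a-3p at 6215 and 10599 against 5780.05 and 8425 CPM. All 3 differed widely between the 0 h libraries, and the changes of −0.99, −0.98, and −0.24 were −0.44, −0.41, and 0.20 without 0 h replicate 2. The family was not called, at −0.47 (standard error 0.27, adjusted p = 0.168).

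Other seeds held members with lower values at 96 h. The CUGGACU family of miR-378a-3p summed to −0.53 (standard error 0.14, adjusted p = 0.0116, edgeR), with all 5 tested members below 0. miR-378d and miR-378e were called lower, at −1.24 and −1.55, but stood alone in this fit, and miR-378e lost its call without 0 h replicate 2 (−1.05) or 96 h replicate 1 (−1.17). The AGUGCAA family of miR-454-3p, miR-301a-3p, and miR-130b-3p summed to −0.48 (standard error 0.19, adjusted p = 0.0537). The AUUGCAC family showed opposed members: miR-92a-3p, its most abundant, was at 4909 and 5052 CPM at 0 h and 5867 and 6896 CPM at 96 h, whereas miR-92b-3p was at 719.8 and 642 against 354 and 384 CPM. The changes were 0.36 (adjusted p = 0.0629) and −0.88 (adjusted p = 0.000915), or −0.37 and −1.60 under total counts, and the family summed to 0.16 (standard error 0.14). The small seeds GUGCCUG, of miR-550a-5p and miR-550a-3-5p, and GGGCGUG, of the miR-1268 pair, were called at −1.19 and −1.70; the members of each share most of their counts.

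Among families with higher values, the ACAUUCA seed of miR-181a-5p and miR-181b-5p, known from T cells and from EMT, came nearest to a call. miR-181a-5p was at 2013 and 2888 CPM at 0 h and 4191 and 5389 CPM at 96 h, and miR-181b-5p at 1024 and 1372 against 2085 and 2483 CPM. Both 96 h libraries were above both 0 h libraries, and the family changed by 0.97 (standard error 0.19, adjusted p = 0.00207, edgeR), or 0.18 under total counts. The ACCCGUA family, led by miR-100-5p at 23579.7 and 20602 CPM at 0 h and 40867 and 44329 CPM at 96 h, changed by 0.93 (standard error 0.15, adjusted p = 0.000540), or 0.16 under total counts. The let-7 seed GAGGUAG, known for restraining growth and stem cell genes, had 9 tested members and summed to 0.52 (standard error 0.16, adjusted p = 0.0201), but to −0.24 under total counts. Its most abundant member, let-7i-5p, was at 68905 and 56725 CPM at 0 h and 88479.9 and 75300.2 CPM at 96 h. The families of miR-30a-5p and miR-148a-3p summed to 0.53 and 0.59 (adjusted p = 0.0116 and 0.0327) and to −0.24 and −0.15 under total counts, so that their direction turned with the scaling. Of seeds with 2 tested members, UCAUACA, of miR-485-3p and miR-539-3p, rose by 2.09 (standard error 0.25, adjusted p = 8.71e-05) and AUCAUAC, of miR-154-3p and miR-487a-3p, by 1.95 (standard error 0.37, adjusted p = 0.00159); both kept their call under total counts. In the second pair miR-154-3p was at 2.59 and at 4.14 without 0 h replicate 2, and miR-487a-3p at 1.497 and at 2.85 without 0 h replicate 1 and 0.75 with 0 h replicate 2 left out. All 4 come from the large cluster on chromosome 14, and outside the seed miR-485-3p and miR-539-3p differ, at 9 of 22 positions in all.

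**Figure D4:**
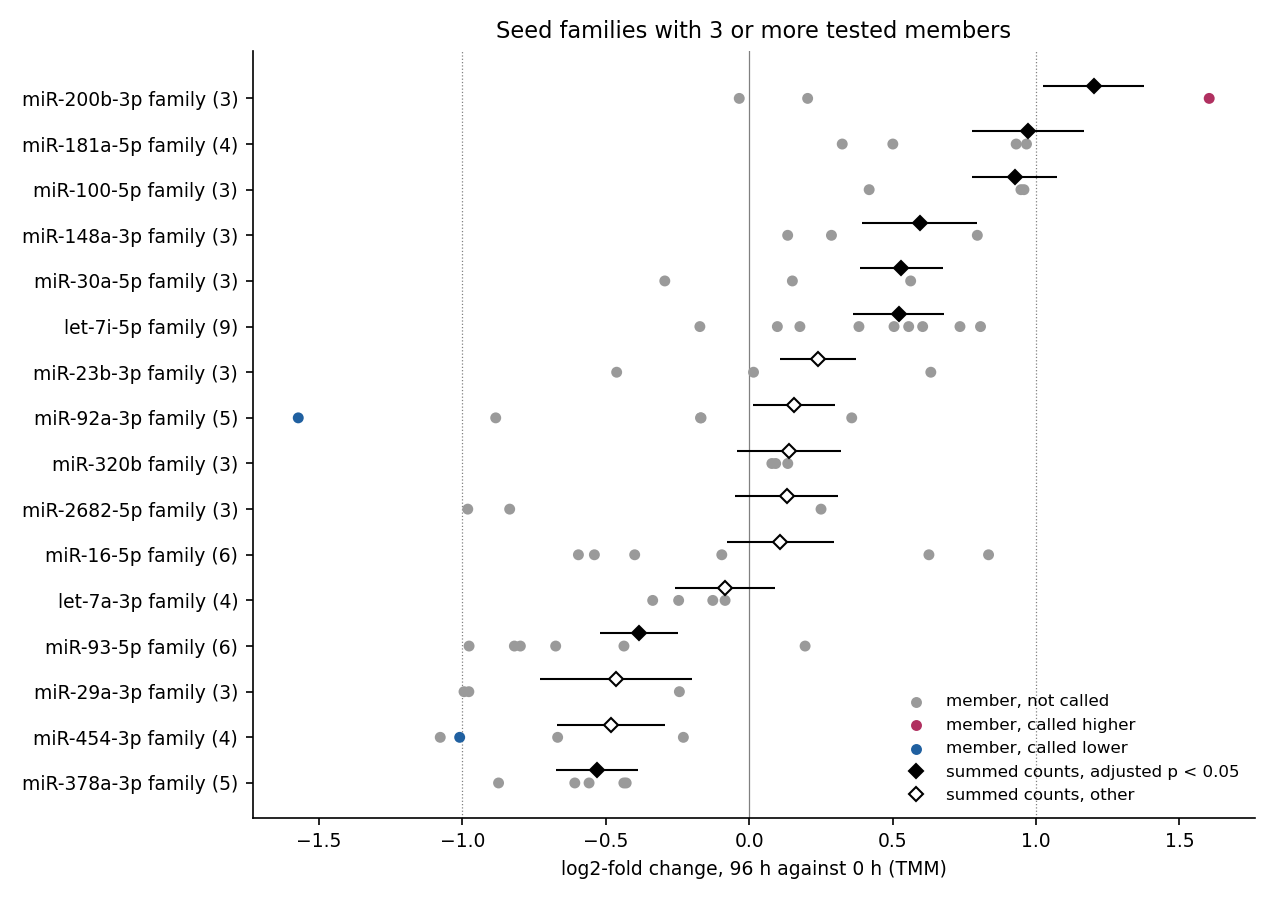
Log2-fold change at 96 h against 0 h of each tested member (points; red called higher, blue called lower, grey not called) of the 16 seed families with 3 or more tested members, each named after its most abundant member with the number tested. Diamonds with bars give the change of the summed counts ± standard error, filled where the adjusted p was under 0.05; the miR-200b-3p family, at 1.20, lies furthest to the right, and the miR-378a-3p family, at −0.53, furthest to the left.

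Loci were compared by the median change of their tested members, beside the median of −0.10 of all 491, of which 13.2% were called lower and 12.6% higher. Of 27 annotated loci with 3 or more tested members, 13 had a called member and none had calls in both directions. The falling loci included the miR-17-92 cluster and both of its relatives. In the miR-17-92 cluster, which lies in MIR17HG on chromosome 13 (91999940 to 92049846) and is known as an oncogenic unit, the median was −0.51 over 10 members, of which 3 were lower by call, miR-17-3p, miR-18a-5p, and miR-92a-1-5p. miR-18a-5p was at 32.2 and 37.3 CPM at 0 h and 12.9 and 17.6 CPM at 96 h, and miR-17-3p at 13.9 and 26.3 against 5.22 and 7.87 CPM. Their changes were −1.19 and −1.64 (adjusted p = 0.00984 and 0.00984, edgeR). Leaving out 96 h replicate 1 ended the call of miR-18a-5p (−0.95), and leaving out 0 h replicate 2 (−1.09) or 96 h replicate 1 (−1.34) ended that of miR-17-3p. miR-92a-1-5p, at −1.78, lost its call without 0 h replicate 2 (−1.47) or 96 h replicate 2 (−1.53) and had 18 and 32 counts in the 0 h libraries and 12 and 7 in those at 96 h, while the abundant miR-92a-3p, which comes from this hairpin and from that of MIR92A2 on chromosome X, was at 0.36, or −0.37 under total counts. miR-19a-3p was at 95.6 and 99.96 CPM at 0 h and 47.9 and 50.7 CPM at 96 h, a change of −0.99 (adjusted p = 0.00656) just short of a call.

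The miR-106b-25 cluster, within MCM7, a gene of the replicative helicase (chromosome 7, 99691183 to 99691697), had a median of −0.74 over 6 members, all 6 below 0. Its calls were the less abundant strands miR-25-5p, at 44.7 and 34.9 CPM at 0 h and 15.7 and 15.2 CPM at 96 h, and miR-93-3p, at 26.0 and 22.98 against 8.17 and 15.7 CPM. miR-25-5p changed by −1.36 (standard error 0.23, adjusted p = 0.00125, edgeR), and its partner miR-25-3p was at 3080.1 and 3235 CPM at 0 h and 2662 and 2953 CPM at 96 h, a change of −0.17 (standard error 0.13). The change of miR-93-3p was −1.05, and −0.92 and −0.61 without 0 h replicate 1 and 96 h replicate 1, where the call was lost. The miR-106a-363 cluster on chromosome X (133303408 to 133304308) had 3 tested members, a median of −0.98 and 1 call, miR-363-3p, with 20 and 23 counts in the 0 h libraries and 9 and 10 in those at 96 h; that call was lost whenever a library was left out. In all, 19 members of the 3 clusters were tested and 6 were lower by call, against 13.2% of all tested miRNAs.

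Further falling loci were clusters within CLCN5 and DALRD3, both protein-coding genes, and the miR-29 clusters. The miR-29 precursors had no position in the annotation used. In the cluster within the chloride channel gene CLCN5 (chromosome X, 49767754 to 49779291), 3 of 11 tested members were called lower, with a median of −0.63. miR-362-5p was at 40.7 and 63.6 CPM at 0 h and 19.7 and 27.7 CPM at 96 h, a change of −1.15 (standard error 0.29, adjusted p = 0.0112, edgeR) that was −0.78 without 0 h replicate 2 and −0.89 with 96 h replicate 1 left out. The other 2, miR-362-3p and miR-502-5p, had at most 16 counts in any of the 4 libraries, DESeq2 called neither, and both lost their call whenever a library was left out, while miR-532-5p, the most abundant member, was at −0.32 (adjusted p = 0.0714). The cluster of miR-191 and miR-425 in DALRD3 (chromosome 3, 49057581 to 49058142) had a median of −0.80 over 4 members. miR-425-5p was at 665 and 492 CPM at 0 h and 362.4 and 212.1 CPM at 96 h, without overlap but with replicates that differed at both times. Its change of −1.01 (standard error 0.25, adjusted p = 0.00984) was −0.73 without 0 h replicate 1 and −0.63 with 96 h replicate 2 left out, and DESeq2 did not call it. The abundant miR-191-5p of the same cluster was at −0.36 (adjusted p = 0.0507), and miR-191-3p, called at −2.06, had 20 and 11 counts in the 0 h libraries and 9 and 1 in those at 96 h and was at −1.29 without 96 h replicate 2 and −4.05 with 96 h replicate 1 left out. The miR-29 clusters had a median of −0.98 over 7 members, all below 0, and 1 call, miR-29c-5p, at 38.8 and 27.8 CPM at 0 h and 11.6 and 10.6 CPM at 96 h, which changed by −1.58 (standard error 0.26, adjusted p = 0.00107) and was called without each of the 4 libraries.

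Some abundant miRNAs were not called with TMM and were called under total counts. miR-221-3p and miR-222-3p, which share a seed and a locus on chromosome X (45605585 to 45606530) and are known for repressing the cell cycle inhibitor p27, were among them. miR-221-3p was at 2597 and 2753 CPM at 0 h and 1372 and 1327 CPM at 96 h, and miR-222-3p at 2557 and 2311 against 1551 and 1479 CPM. No library of one time point reached the range of the other, and the changes were −0.99 and −0.68 (standard error 0.14 and 0.13, adjusted p = 0.000460 and 0.00269, edgeR). miR-34a-5p, a target of p53 that represses SNAI1, was at 408 and 487 CPM at 0 h and 276 and 264 CPM at 96 h, a change of −0.73 (standard error 0.16, adjusted p = 0.00618). All 4 tested members of the miR-34 family were below 0, with a median of −0.71; edgeR and DESeq2 called 0 of them and 1 had an unadjusted p under 0.05. Under total counts the changes of miR-221-3p, miR-222-3p, and miR-34a-5p were −1.72, −1.41, and −1.47, all with a call.

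By the same rule the 12 largest rises, by number, were miR-143-3p, miR-181a-2-3p, miR-485-3p, miR-485-5p, miR-495-3p, miR-543, miR-664a-3p, miR-889-3p, miR-1246, miR-1290, miR-3195, and miR-7704. Their changes lay between 6.32 and 1.92, and all 12 were called under total counts and without each of the 4 libraries. Of these, miR-3195 was at 6.28 and miR-1290 at 4.91 without 0 h replicate 2, against 5.46 and 4.20 with all libraries, and miR-543 at 2.67 without 0 h replicate 1, against 1.95. miR-181a-2-3p, from the less abundant strand of MIR181A2 on chromosome 9 (127454721 to 127454830), was at 117 and 117 CPM at 0 h and 556 and 616 CPM at 96 h. These 2 ranges were far apart, with 306 and 318 CPM at 24 h between them, and the change was 2.32 (standard error 0.15, adjusted p = 4.89e-06, edgeR). All 8 tested members of the miR-181 clusters were above 0, with a median of 0.94, or 0.20 under total counts, and 1 was called. miR-365a-3p and miR-365b-3p have the same sequence and nearly the same counts and are encoded on chromosomes 16 (MIR365A, 14403142 to 14403228) and 17 (MIR365B, 29902430 to 29902540), so that their reads cannot be assigned to a locus. They were at 393 and 423 CPM at 0 h and 1189.9 and 1343 CPM at 96 h, a change of 1.63 (standard error 0.14, adjusted p = 2.33e-05), which was 0.90 and below the threshold under total counts. miR-365a-5p, which belongs to the first locus, was at 74.4 and 71.3 CPM at 0 h and 154.5 and 114 CPM at 96 h, a change of 0.88 (adjusted p = 0.00435), and miR-193a-3p, encoded on chromosome 17 as MIR365B is, was called lower.

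Both strands of MIR455, within the collagen gene COL27A1 on chromosome 9 (116971714 to 116971809), rose. miR-455-5p was at 301.5 and 230.4 CPM at 0 h and 696 and 577 CPM at 96 h, and miR-455-3p at 39.9 and 31.3 against 118 and 87.3 CPM. The changes were 1.26 and 1.53 (standard error 0.19 and 0.22, adjusted p = 0.000680 and 0.000475, edgeR), and 0.54 and 0.80 under total counts. miR-582-3p, within the phosphodiesterase gene PDE4D on chromosome 5 (MIR582, 58999432 to 58999529), was the most abundant rise off chromosome 14, at 1544 and 887 CPM at 0 h and 3258 and 2653 CPM at 96 h. Its 0 h libraries differed most, and the change of 1.28 (standard error 0.24, adjusted p = 0.00206) was 0.94 without 0 h replicate 2, where the call was lost. miR-450b-5p, of the cluster of miR-424, miR-503, miR-542, and miR-450 on chromosome X (MIR450B, 133674215 to 133674292), was at 105.5 and 95.2 CPM at 0 h and 216 and 246 CPM at 96 h. It was the 1 call among 7 tested members of that cluster, at 1.20 (standard error 0.16, adjusted p = 0.000326), beside miR-424-5p at 0.83 and miR-542-3p at 0.85 (adjusted p = 0.00647 and 0.00130). The median of the cluster was 0.78, or 0.074 under total counts.

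miR-135b-5p, within LEMD1 on chromosome 1 (MIR135B, 205417430 to 205417526), had 9 and 5 counts in the 0 h libraries and 81 and 49 in those at 96 h, a change of 2.75 (standard error 0.51, adjusted p = 0.00202, edgeR) that was 3.43 without 0 h replicate 1. It was low at 24 h too, with 8 and 3 counts. miR-944, within TP63, the gene of a transcription factor of basal epithelia (MIR944, chromosome 3, 189547711 to 189547798), was at 8.43 and 11.6 CPM at 0 h and 19.7 and 27.4 CPM at 96 h. Its change was 1.21 (adjusted p = 0.0122), and it was at 1.003 and lost its call without 96 h replicate 2. miR-31-3p was at 189 and 236 CPM at 0 h and 473 and 417 CPM at 96 h and miR-361-3p at 391 and 255 against 756 and 579 CPM, with changes of 1.07 and 1.05. The first lost its call without 0 h replicate 1 (0.96) or 96 h replicate 1 (0.998) and the second without 0 h replicate 2 (0.78) or 96 h replicate 1 (0.87). Under total counts none of miR-944, miR-31-3p, and miR-361-3p was called, at 0.48, 0.32, and 0.33.

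Several epithelial and growth-restraining groups had medians above that of all miRNAs with at most 1 call. The 5 tested members of the cluster of miR-183, miR-96, and miR-182 on chromosome 7 (129410223 to 129414854), which is abundant in sensory and other epithelia, had a median of 0.42, or −0.32 under total counts. edgeR and DESeq2 called 0 of them, and 3 had an unadjusted p under 0.05. miR-182-5p, the most abundant, was at 4578 and 4138 CPM at 0 h and 5933 and 6606 CPM at 96 h, a change of 0.52, or −0.19 under total counts. In the miR-200 family, 6 members were tested and 1 was called higher, with a median of 0.48, or −0.25 under total counts. miR-200a-3p was at 37.0 and 44.8 CPM at 0 h and 64.4 and 79.2 CPM at 96 h, a change of 0.81 (adjusted p = 0.00947, edgeR). The 2 members below 0 were miR-200c-3p, at −0.03, and miR-141-3p, at −1.14, and neither was called. The let-7 and miR-98 guide strands had a median of 0.50, or −0.21 under total counts; 0 of 9 were called by edgeR or DESeq2, with 6 at an unadjusted p under 0.05.

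**Figure D5:**
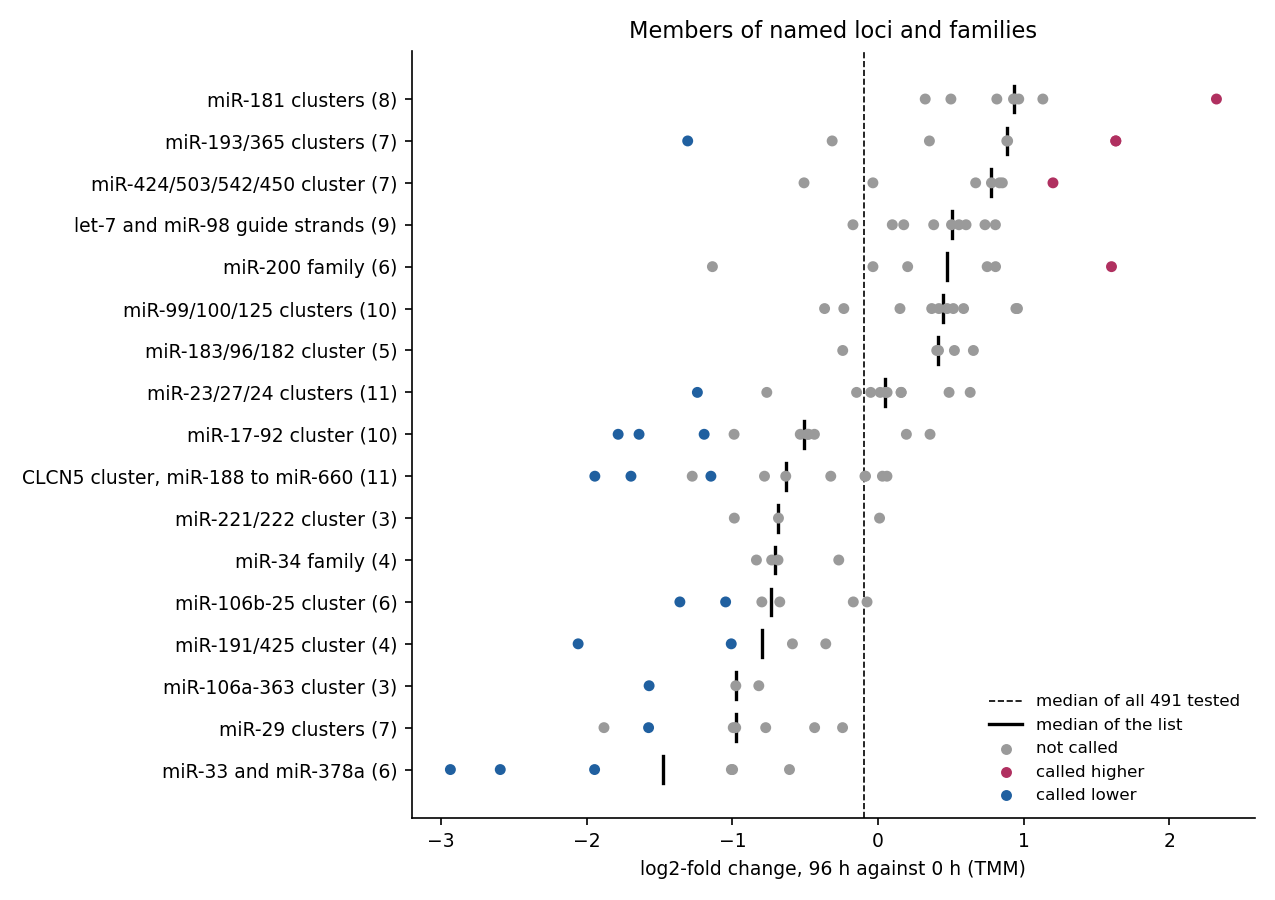
Log2-fold change at 96 h against 0 h of each tested member (points; red called higher, blue called lower, grey not called) of 17 loci and families, with a black line for the median of each and a dashed line for the median of all 491 tested miRNAs. Among the 17 shown, the lowest median is that of the miR-33 and miR-378a group, at −1.48, and the highest that of the miR-181 clusters, at 0.94. Loci not shown had medians further out. Higher were the 2 annotated loci on chromosome 14, at 1.24 and 1.32, and the cluster of miR-143-3p, at 5.69 with 2 tested members. Lower were the annotated locus of miR-29c-3p, at −1.58, and the cluster of miR-302c-5p, at −4.64 with 1 tested member.

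Of the annotated miRNAs that lie within other structural RNAs, 13 of 26 were tested; 4 rose and 1 fell, against 12.6% and 13.2% of all tested miRNAs. miR-1246 and miR-1290, whose sequences are in part those of small nuclear RNA, were among the rises. miR-1246 was at 45.4 and 59.98 CPM at 0 h and 379.6 and 344 CPM at 96 h, and miR-1290 at 3.66 and 8.06 against 114 and 107 CPM. miR-664a-3p, within a small nucleolar RNA, was at 5.86 and 3.58 CPM at 0 h and 16.1 and 19.3 CPM at 96 h, a change of 1.92 (standard error 0.35, adjusted p = 0.00202, edgeR), and miR-3687 was the fall, with 24 and 18 counts in the 0 h libraries and 8 and 6 in those at 96 h and a call in 1 of 4 cases when a library was left out. Whether these reads are miRNAs or fragments of the longer RNAs was not tested. Among mirtrons and other miRNAs made without Drosha, 1 of 6 tested was called lower, a share near the 13.2% of all tested miRNAs. It was miR-877-5p, with 17 and 18 counts in the 0 h libraries and 5 and 8 in those at 96 h, and DESeq2 called none.

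The 2 annotated loci on chromosome 14, which share an imprinted region, held 33 of the 62 rises. In the first, from 101335397 to 101351125, 7 of 12 tested members rose, and in the second, from 101488366 to 101533138, 26 of 38 did, against 12.6% of all tested miRNAs. The most abundant of the 33 were miR-381-3p of the second locus (MIR381, 101512257 to 101512331), at 1631 and 1530.2 CPM at 0 h and 3836 and 3407 CPM at 96 h, and miR-127-3p of the first, at 1014 and 1064 against 2019 and 2160.04 CPM. Their changes were 1.20 and 1.01 (standard error 0.14 and 0.13, adjusted p = 0.000164 and 0.000299, edgeR) but 0.47 and 0.28 under total counts, without a call. Both strands of miR-485 rose, by 2.21 for the 3p and 2.20 for the 5p strand.

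Marker miRNAs of other cell types were checked by their summed level. The 6 miRNAs of fibroblasts and smooth muscle summed to 8.79 and 5.67 CPM at 0 h and 419.5 and 452.4 CPM at 96 h, nearly all of it miR-143-3p, while no library held a count of miR-214-3p. The 8 miRNAs of blood summed to 135 and 138 CPM at 0 h and 29.5 and 36.1 CPM at 96 h, nearly all of it miR-486-5p, with miR-144-5p, miR-223-3p, and miR-150-5p at 0 counts in all 4. The epithelial list summed to 9648 and 8682 CPM at 0 h and 10536 and 9420 CPM at 96 h, and that of striated muscle was at most 1.83 CPM. Endothelial markers summed to 460 and 404 against 495 and 455 CPM. Those of neurons, nearly all miR-128-3p, summed to 891 and 545 against 716 and 625 CPM. Hepatocyte markers, all of it miR-122-5p, which was called lower, summed to 5.49 and 2.69 against 0.908 and 0.271 CPM. In RNA of whole cultures, a change in the share of cells and a change in RNA per cell cannot be told apart, and the part of other cells in the results was not tested.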

How the data were processed

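Small RNA libraries of A549 cells were made with Illumina's small RNA kit and run on a HiSeq 2000. The deposited counts are whole reads per mature miRNA and precursor entry, which the authors obtained with miRDeep2, summed over the 2 runs of a library. The submitters' processing notes name FastQC and hg19, and the miRNA reference is not given in the sources used here. A table of values normalized by the authors was not used because 1 of its columns repeats another in name and values. Of 2822 entries, 1 was kept for each of 2588 mature names, that with the highest total, since 170 names had several.

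Counts were filtered with filterByExpr (minimum count 10) and fitted with TMM normalization and edgeR's quasi-likelihood test (edgeR 4.0.16, R 4.3.3) over all 6 libraries with time point as the factor, and calls needed a log2-fold change above 1 in size and a Benjamini-Hochberg adjusted p below 0.05. Seed families were fitted in the same way after counts were summed, and strand ratios with limma 3.58.1. DESeq2 1.42.0 was an alternative. The edgeR fits of miRNAs and seed families and the limma fit of strand ratios were tested on simulated counts with log2 changes of 2. Other steps were not tested in this way. Precursors within 10 kb on 1 strand in RefSeq, placed by their mature strands where the hairpin was not listed, formed a locus. Positions on GRCh37 come from GENCODE release 44, and gene overlap is by annotated extent on the same strand, without regard to exons. Sequences are from RefSeq, which held 2281 of the 2588 mature names and 434 of the 491 tested.

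The miRNAs, lists and comparisons were chosen with earlier results of these data known. The rule named the 12 largest falls and rises whose time points did not overlap and whose mean reached 10 CPM, calls with at least 1000 CPM, called and leading members of families and loci with 3 or more tested members, called strand ratios and the members of fixed lists. Outside it, miR-1180-3p, miR-573, miR-326, miR-1307-5p, miR-941, miR-589-5p, miR-378d, miR-378e, miR-455-5p, miR-455-3p, miR-135b-5p, miR-944, miR-31-3p, miR-361-3p, miR-92b-3p, and the seed pairs of miR-485-3p, miR-154-3p, and miR-550a-5p were chosen after their values were seen. The labels give 2 replicates of each time point, and their numbers were not used to pair the libraries in the main fit. Deviations from the group means of same-numbered libraries correlated at −0.30 for 0 and 24 h and 0.31 for 0 and 96 h. For 24 and 96 h the correlation was −0.18. With 2 libraries per time point, these values cannot show whether the libraries were paired. Normalization, filter, test, libraries, and seed length were varied one at a time.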

Additional observations from a re-analysis of the deposited data

How the results depend on the processing

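The scaling set how many miRNAs were called in each direction. Of the tested miRNAs 25.9% were called, and under total counts 43.8% (4.68% higher and 39.1% lower); of the seed families 28.1% were called, and under total counts 44.7% (5.38% higher and 39.4% lower). Total counts without miR-21-5p gave 39 higher (7.94%) and 121 lower (24.6%), and DESeq2's Wald test 69 higher and 43 lower (8.76%). The median change of all tested miRNAs was −0.026 with DESeq2's size factors, −0.83 with total counts, −0.45 without miR-21-5p, and −0.047 with the 4 libraries alone, and −0.097 to 0.038 when single libraries were left out. Without a minimum fold change, 44.0% of miRNAs (22.8% higher and 21.2% lower) and 46.2% of seed families (25.9% higher and 20.3% lower) were called. Leaving out single libraries gave 35 to 60 falls (6.77% to 11.2%), 58 to 82 rises, 7.67% to 10.4% of seed families lower, and 0 to 14.5% of strand ratios, and with the 4 libraries alone 0 strand ratios were called. With the replicate block 63 miRNAs were called higher (12.8%) and 61 lower (12.4%), 28.9% of seed families, and 1 strand ratio. Under total counts the changes of let-7i-5p (−0.34), miR-182-5p (−0.19), miR-20a-5p (−0.52), miR-27b-3p (−0.57), miR-429 (−0.53), and miR-92a-3p (−0.37) and of the seed families of let-7i-5p (−0.24), miR-148a-3p (−0.15), miR-30a-5p (−0.24), and miR-92a-3p (−0.62) turned negative, and without miR-21-5p in the total so did miR-20a-5p (−0.15), miR-27b-3p (−0.19), and miR-429 (−0.15). Without single libraries miR-29a-3p lay between −0.54 and 0.20 and its family between −0.76 and 0.0065. These turned results were not called with TMM, and the cause of the turns was not tested. Depth limits the precision of the 22 falls, of 65, with fewer than 10 counts in both 96 h libraries.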

Other observations

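The calls at 96 h were also read in the 24 h libraries. Values at 24 h lay below the range of the 0 h libraries in 50 of the 65 falls and above it in none, and above it in 49 of the 62 rises and below it in 2. Among all 491 tested miRNAs, 140 lay below that range at 24 h, and a similar number above it. The 24 h and 96 h comparisons share their 0 h libraries, so these counts are not independent of the calls at 96 h.

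miR-4521 was at 102 and 128.5 CPM at 24 h, miR-1180-3p at 193.9 and 220.9 CPM, miR-7974 at 45.0 and 48.3 CPM, and miR-486-5p at 82.2 and 71.3 CPM, in each case between the levels at 0 h and at 96 h. miR-138-5p, at 181.99 and 142.9 CPM, also lay between them. In contrast, miR-7-5p was at 863 and 861 CPM at 24 h, below its levels at 96 h. Among the rises, miR-365a-3p was at 819.9 and 753 CPM, miR-455-5p at 296 and 374 CPM, and miR-582-3p at 1694 and 2016 CPM.

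Among the 491 tested miRNAs, 94 (19.1%) carry an miRBase number above 1000, given to miRNAs annotated later. This was so for 21 of the 65 falls (32.3%) and 11 of the 62 rises (17.7%). These shares are descriptions and were not tested.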
